A study of Mus musculus with 6 samples.

Results

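The genes of the proteasome were examined by RNA sequencing in primary mouse macrophages, cultured out of bone marrow with M-CSF, the growth factor that drives macrophage differentiation. Members were the genes whose symbol consists of Psm, 1 letter from a to g and a number, without the inducible catalytic subunits Psmb8, Psmb9 and Psmb10 and without pseudogenes. This gave 45 of the 34745 genes in the deposited count table, of which 44 passed the filter on low counts and were tested among 13815 genes. Psmb11, the thymus-specific catalytic subunit, had 0 counts in all 6 libraries and was not tested. The tested libraries were 3 from wild-type (WT) cells pretreated with an inhibitor of KAT8 and 3 from WT cells pretreated with DMSO, the solvent control. All 6 cultures were grown in M-CSF at 20 ng/ml and stimulated with R848 at 100 ng/ml for 6 h, so no library came from unstimulated cells. R848 (resiquimod) is a small-molecule agonist of TLR7, and KAT8 (MOF) is a lysine acetyltransferase that acts on histone H4. The identity of the inhibitor, its concentration and the pretreatment time are not in the labels. Nor do the labels say if replicates were separate mice or cultures, so the p-values here cover the spread among libraries, which may be technical.

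The proteasome degrades proteins tagged with ubiquitin. Its 20S core is a barrel of stacked alpha and beta rings, with the proteolytic sites inside the beta rings. The 19S regulatory particle caps the core: its base holds the ATPases that unfold substrates, and its lid holds the enzyme that removes ubiquitin before entry. Other caps (PA28, encoded by Psme1 to Psme3, and PA200, encoded by Psme4) can bind in place of the 19S particle, and dedicated chaperones help to build the core and the base. In macrophages the immunoproteasome, in which Psmb8, Psmb9 and Psmb10 replace Psmb5, Psmb6 and Psmb7, is induced by interferon and shapes peptides for MHC class I.

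Total counts per library ranged from 18441352 to 25089320, and 3 counts in a library corresponded to 0.116 to 0.166 CPM, the count relative to a fixed library total. Levels are given as CPM scaled by edgeR's TMM factors. Differences are log2 fold changes of inhibitor over DMSO with their standard error (SE), and the adjusted p comes from the quasi-likelihood test in edgeR, adjusted over all tested genes by Benjamini-Hochberg. A gene was called when this p was under 0.05. Of all tested genes, 51.5% were called, 24.9% higher and 26.5% lower, and the median log2 fold change was 0.01. Kat8 itself averaged 20.8 ± 0.351 CPM in inhibitor libraries and 16.1 ± 0.727 CPM in DMSO libraries (SD, n = 3 each), which does not check an inhibitor of the protein. All 8 macrophage markers were detected, with a summed level of 7417 to 7516 CPM in inhibitor libraries and 11318 to 12962 CPM in DMSO libraries, and 5 of the 8 were called lower. Of 9 stromal markers 8 were called lower, with sums of 1644 to 1753 CPM and 4405 to 5163 CPM in inhibitor and DMSO libraries. Summed neutrophil markers lay at 1.99 to 2.85 CPM and 6.41 to 7.12 CPM in inhibitor and DMSO libraries, with Ly6g, Elane, Ngp and S100a9 at 0, and all 3 erythroid markers were at 0. The part of these marker differences in the results below was not tested, and in bulk RNA fewer cells of a type and less RNA per cell cannot be told apart.

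Among the 44 tested proteasome genes, 9 rose, 16 fell and 19 did not pass the test, so 20.5% were called higher and 36.4% lower. The groups did not overlap for 28 of them (63.6%), against 60.6% of all tested genes. The share called in either direction, 56.8%, was near the 51.5% of all genes. Their changes were small: 4 were called with a fold change of at least 1.5 in either direction, against 21.6% of all genes, and the median absolute log2 fold change was 0.25 against 0.30 for all genes. The median log2 fold change of the members was -0.09, which turned to 0.02 when libraries were scaled to their totals. That scaling moved the median of all genes by 0.11, and relative to that median the members stood at -0.10 under both scalings. Counts over all members made up 0.535% ± 0.011 of the library in inhibitor libraries and 0.523% ± 0.0178 in DMSO libraries (SD, n = 3 each; exact permutation p = 0.4, two-sided). The plot of fold changes by class gives every member.

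**Figure D1:**
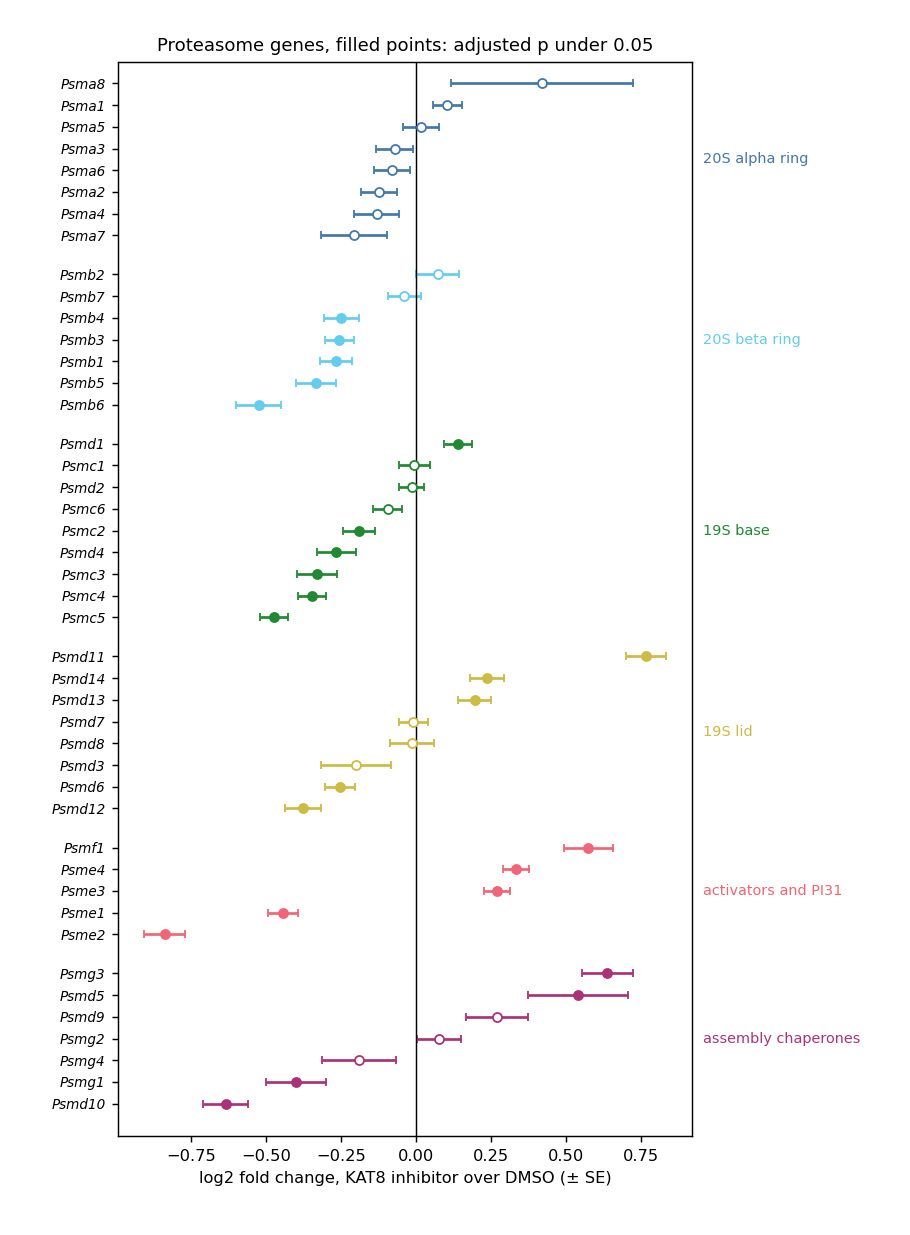
Log2 fold change (inhibitor over DMSO) with its SE for the 44 tested proteasome genes, grouped by class and ordered by value within a class; filled points have an adjusted p under 0.05. No alpha-ring gene is filled, the 5 filled beta-ring genes lie left of 0, and the values run from -0.84 (Psme2) to 0.77 (Psmd11).

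The alpha ring forms the outer gate of the core. None of its 8 genes was called by the quasi-likelihood test in edgeR, against 51.5% of all tested genes. Of the 8, 0 had an unadjusted p under 0.05, and DESeq2 called 0. Their median log2 fold change was -0.08 (0.04 with library totals). Psma1 had the smallest p among them, and it was the only 1 of the 8 whose groups did not overlap (12.5%, against 60.6% of all tested genes). It measured 154, 153 and 152 CPM in inhibitor libraries and 134, 144 and 148 CPM in DMSO libraries (0.10, SE 0.05, adjusted p = 0.0939), so the groups stood close to each other. Scaled to library totals it was called (0.21, adjusted p = 0.00311). Psma7, whose spread was wide in DMSO libraries (122 ± 21.1 CPM against 106 ± 0.542 CPM in inhibitor libraries, SD, n = 3 each), was called lower without DMSO replicate 1 (-0.34, adjusted p = 0.000861), and so was Psma2 (-0.19, adjusted p = 0.0126). After the GC and length correction Psma2 was called lower (-0.18, adjusted p = 0.04). Psma8, the testis-specific alpha subunit, was low, at 1.69 ± 0.314 CPM in inhibitor libraries and 1.24 ± 0.501 CPM in DMSO libraries (SD, n = 3 each). Counts of Psma5 are uncertain, because Gm8394, a processed pseudogene on chromosome 10 that is 98.6% identical over 952 bases, held 45% of the counts of both genes summed. Summed with it, Psma5 differed by 0.0007 on the log2 scale (SE 0.05, adjusted p = 0.992).

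The beta ring carries the proteolytic sites. Of its 7 tested genes 5 fell and 0 rose (0 also at an unadjusted p under 0.05 in edgeR and by DESeq2), with a median log2 fold change of -0.26 (-0.15 with library totals). Lower calls made up 71.4% of the ring, against 26.5% of all tested genes. The falls ran from -0.25 (Psmb4) to -0.52 (Psmb6), and Psmb1 and Psmb3 lay between them. Psmb2 and Psmb7 did not pass the test.

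Psmb6 (chromosome 11, 70525367 to 70527858, + strand), the subunit with caspase-like activity, was the member of the ring that fell most. It measured 232, 209 and 236 CPM in inhibitor libraries and 292, 352 and 330.0 CPM in DMSO libraries. Every inhibitor library lay below every DMSO library (-0.52, SE 0.08, adjusted p = 0.000642). Psmb5 (chromosome 14, 54614119 to 54618022, - strand), the chymotrypsin-like subunit, measured 87.1, 90.4 and 84.7 CPM in inhibitor libraries and 98.9, 115 and 116 CPM in DMSO libraries. Its groups did not overlap either (-0.33, SE 0.07, adjusted p = 0.00362). Psmb7 (chromosome 2, 38588036 to 38644087, - strand), the trypsin-like subunit, measured 120.4, 117 and 115 CPM in inhibitor libraries and 111.5, 125 and 126 CPM in DMSO libraries. Those groups overlapped (-0.04, SE 0.06, adjusted p = 0.586). Psmb7 shares 405 bases of exon with Nek6 on the opposite strand, which fell (-0.78, adjusted p = 0.00509), and whether the counting used strand is not given in the sources used here, so reads of the 2 genes may be mixed.

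The inducible counterparts of these 3 subunits all fell, beside 26.5% of all tested genes called lower. Psmb8 averaged 75.4 ± 2.22 CPM in inhibitor libraries and 129 ± 6.97 CPM in DMSO libraries (-0.78 on the log2 scale, SE 0.05, adjusted p = 1.01e-05). Psmb9 averaged 17.1 ± 1.9 CPM and 27.3 ± 4.37 CPM in inhibitor and DMSO libraries (-0.67, SE 0.13, adjusted p = 0.00284). Psmb10 averaged 70.1 ± 2.7 CPM and 123 ± 8.09 CPM in inhibitor and DMSO libraries (-0.81, SE 0.06, adjusted p = 1.46e-05; SD, n = 3 each for all 3). Per kilobase of exon within a library, Psmb8 over Psmb5 was 0.229 ± 0.00267 in inhibitor libraries and 0.313 ± 0.0122 in DMSO libraries. Psmb10 over Psmb7 was 1.20 ± 0.0368 in inhibitor libraries and 2.04 ± 0.0645 in DMSO libraries (both exact permutation p = 0.1, two-sided, the smallest that 3 against 3 libraries allow). Psmb9 over Psmb6 was 0.039 ± 0.00591 in inhibitor libraries and 0.0429 ± 0.00319 in DMSO libraries, with overlapping groups (exact permutation p = 0.4). These ratios were chosen after the values were seen. By the length of the principal transcript Psmb10 was instead below Psmb7 in both groups. The levels were 53.5 against 101 CPM per kilobase in inhibitor libraries and 93.8 against 104 in DMSO libraries.

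The promoter windows of 2 catalytic core genes and of the lid genes with the largest fall and rise are shown because these genes carry the differences described here, and because the transcription factor NRF1 (Nfe2l1), which drives proteasome genes, binds antioxidant response elements (ARE). The windows are the 250 bases before the RefSeq gene start (GRCm38.p6), written 5′ to 3′ on the gene's strand, with matches to the ARE core TGACNNNGC or TGAGNNNGC, on either strand, in capitals.
Psmb5 promoter: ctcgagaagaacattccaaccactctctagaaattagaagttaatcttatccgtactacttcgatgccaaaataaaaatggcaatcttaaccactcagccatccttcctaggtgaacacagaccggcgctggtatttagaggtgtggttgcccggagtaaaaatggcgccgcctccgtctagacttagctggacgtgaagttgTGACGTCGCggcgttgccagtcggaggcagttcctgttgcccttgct
Psmb6 promoter: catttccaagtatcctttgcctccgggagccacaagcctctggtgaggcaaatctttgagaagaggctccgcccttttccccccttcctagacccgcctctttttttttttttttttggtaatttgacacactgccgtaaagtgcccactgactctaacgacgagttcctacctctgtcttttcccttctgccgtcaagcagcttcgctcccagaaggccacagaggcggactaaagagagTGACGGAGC
Psmd12 promoter: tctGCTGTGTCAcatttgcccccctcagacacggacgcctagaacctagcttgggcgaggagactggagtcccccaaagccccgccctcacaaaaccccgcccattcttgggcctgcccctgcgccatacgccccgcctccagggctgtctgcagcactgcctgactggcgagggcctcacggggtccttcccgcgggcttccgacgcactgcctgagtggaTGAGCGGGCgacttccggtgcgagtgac
Psmd11 promoter: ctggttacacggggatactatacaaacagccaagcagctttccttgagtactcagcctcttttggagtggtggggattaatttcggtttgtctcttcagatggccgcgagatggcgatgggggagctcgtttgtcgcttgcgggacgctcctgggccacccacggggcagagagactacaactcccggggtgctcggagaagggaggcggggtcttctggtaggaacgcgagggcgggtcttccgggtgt
The Psmb5 window is chr14:54617996-54618245 on the - strand, and its match begins 47 bases before the start. The Psmb6 window is chr11:70525107-70525356 on the + strand, with a match 9 bases before the start. The Psmd12 window is chr11:107479278-107479527 on the + strand, with matches 247 and 28 bases before the start. The Psmd11 window, chr11:80428365-80428614 on the + strand, held no match. Of 37 members with a window, 12 held the ARE core (32.4%), against 25.7% of 27025 genes. By call it was found in 2 of 9 members that rose, 5 of 14 that fell and 5 of 13 that did not pass. The windows of Psme2 and Psmd10, the members that fell most, held no match. A link between these matches and the changes was not tested. The CCAAT box was found in 13 members (35.1%, against 37.5% of all genes), and the interferon-stimulated response element core in 3 (8.11%, against 3.46%). Both were searched on both strands.

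Members of the 19S base are the 6 ATPases Psmc1 to Psmc6, the scaffolds Psmd1 and Psmd2, and the ubiquitin receptor Psmd4. Adrm1, another ubiquitin receptor of the base, lies outside the symbol rule and is given with the partners. Of these 9 genes 5 fell, 1 rose and 3 did not pass, with a median log2 fold change of -0.19 (-0.08 with library totals). Lower calls made up 55.6% of the base, against 26.5% of all tested genes. The 5 that fell were Psmc2, Psmc3, Psmc4, Psmc5 and Psmd4, from -0.19 to -0.47. Psmc5 (chromosome 11, 106256154 to 106263120, + strand), an ATPase, fell most. It measured 91.1, 94.2 and 95.8 CPM in inhibitor libraries and 125, 129.9 and 136 CPM in DMSO libraries. The groups did not overlap (-0.47, SE 0.05, adjusted p = 8.04e-05). Psmd1 (chromosome 1, 86064387 to 86139151, + strand), a large scaffold subunit, was the 1 base gene that rose. It measured 303, 308 and 318 CPM in inhibitor libraries and 273, 275 and 295 CPM in DMSO libraries (0.14, SE 0.05, adjusted p = 0.0326). The groups did not overlap, but the call was lost when any of 5 single libraries was left out (adjusted p = 0.0524 without inhibitor replicate 1, 0.0758 without inhibitor replicate 2, 0.11 without inhibitor replicate 3, 0.0796 without DMSO replicate 1 and 0.0944 without DMSO replicate 2). The call of Psmc2 was lost without inhibitor replicate 2 (adjusted p = 0.0682), DMSO replicate 2 (0.0505) or DMSO replicate 3 (0.055), and with library totals (0.191). Psmd4 was at an adjusted p of 0.0514 with library totals, and Psmc6 was called lower after a GC and length correction (-0.15, adjusted p = 0.0285).

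The lid, which contains the deubiquitinase Psmd14, divided. Of its 8 genes among the members 3 rose (Psmd11, Psmd13 and Psmd14), 2 fell (Psmd6 and Psmd12) and 3 did not pass. The share called, 62.5%, stood beside 51.5% of all tested genes. Sem1, a further lid subunit outside the symbol rule, fell (-0.27, adjusted p = 0.0326) and is given with the partners. The median log2 fold change of the lid was -0.01 (0.10 with library totals), so the sign of this median depends on the scaling. Psmd11 (chromosome 11, 80428615 to 80473248, + strand), a scaffold that links the lid to the base and the core, had the largest rise of any member. It measured 160.0, 163 and 177 CPM in inhibitor libraries and 92.0, 95.3 and 107 CPM in DMSO libraries. All inhibitor libraries lay well above all DMSO libraries (0.77, SE 0.07, adjusted p = 3.84e-05). Psmd12 (chromosome 11, 107479484 to 107504362, + strand), another scaffold of the lid, fell most. It measured 80.2, 85.7 and 88.6 CPM in inhibitor libraries and 113, 114 and 103 CPM in DMSO libraries (-0.38, SE 0.06, adjusted p = 0.00102), again without overlap. Per kilobase of exon, Psmd11 over Psmd12 was 0.816 ± 0.0217 in inhibitor libraries and 0.372 ± 0.0524 in DMSO libraries (SD, n = 3 each, exact permutation p = 0.1, two-sided). The pair was chosen after the values were seen, for the largest rise and fall. Their ratio therefore had to separate the groups, and its p adds no evidence. By the length of the principal transcript Psmd11 was the higher in inhibitor libraries, at 58.6 against 44.5 CPM per kilobase. In DMSO libraries it was the lower, at 34.4 against 57.8. Psmd14, which removes ubiquitin chains from substrates, averaged 144 ± 10.1 CPM in inhibitor libraries and 122 ± 1.82 CPM in DMSO libraries (0.24, SE 0.06, adjusted p = 0.00776). Psmd13 shares 342 bases of exon (10.1%) with Sirt3 on the opposite strand, which rose (1.54, adjusted p = 5.18e-05) and had 202 to 251 counts in inhibitor libraries and 57 to 77 counts in DMSO libraries. The call of Psmd13 (0.20) was lost without inhibitor replicate 3 (adjusted p = 0.0642). Psmd3 was called lower without DMSO replicate 1 (-0.32, adjusted p = 0.028).

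**Figure D2:**
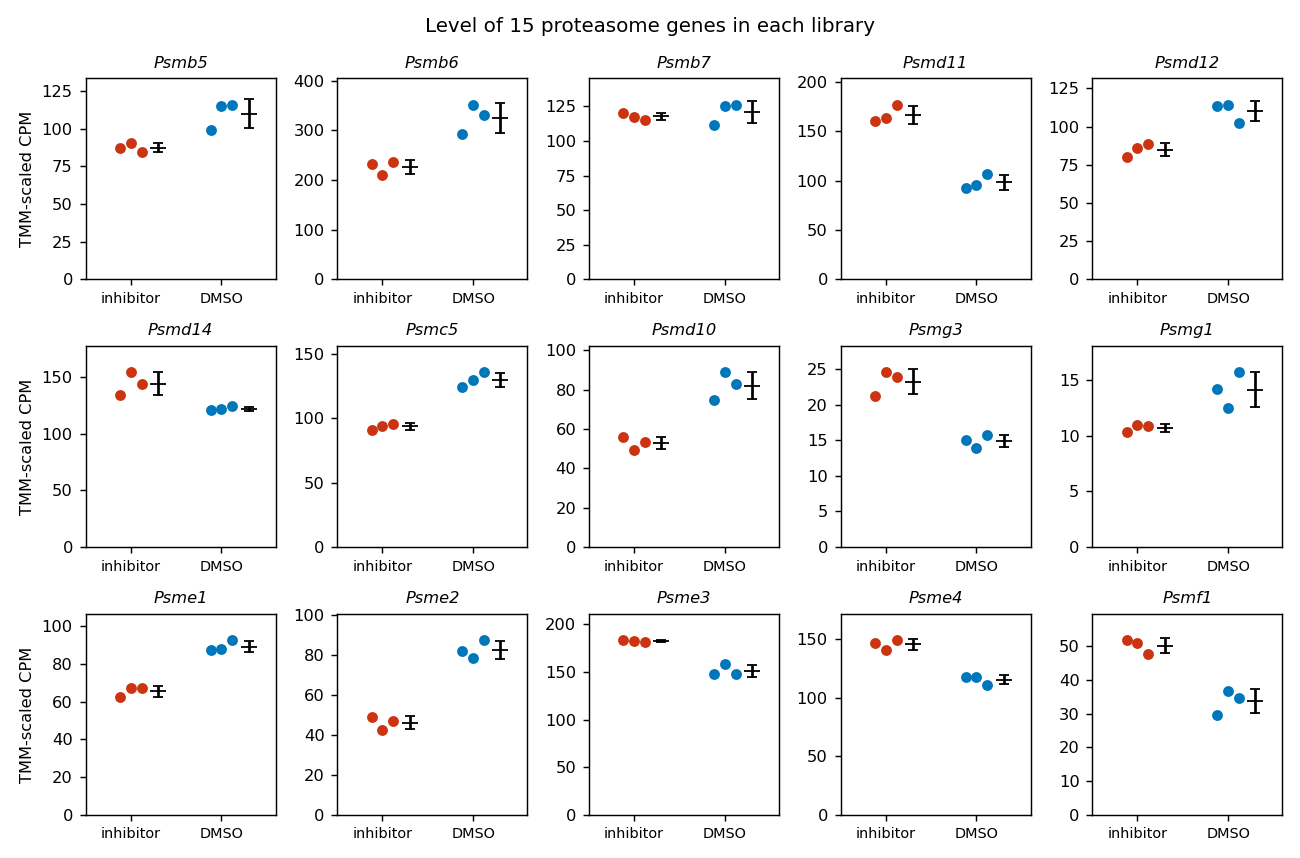
TMM-scaled CPM of 15 proteasome genes in each of the 6 libraries, with the mean and SD of each group beside the points; every axis starts at 0. Psmb7 is the gene whose groups overlap in this selection, and Psmd11 shows inhibitor libraries at 160.0 to 177 CPM against 92.0 to 107 CPM in DMSO libraries.

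All 5 genes of the alternative caps and the inhibitor PI31 were called, in opposite directions: 3 rose and 2 fell, with a median log2 fold change of 0.27 (0.38 with library totals). Of all tested genes 51.5% were called. Psme1 and Psme2, whose products form the interferon-induced PA28 cap of the immunoproteasome, fell. Psme1 (chromosome 14, 55578123 to 55581529, + strand) measured 62.4, 67.2 and 67.2 CPM in inhibitor libraries and 87.2, 87.8 and 92.7 CPM in DMSO libraries (-0.44, SE 0.05, adjusted p = 0.000173). Psme2 (chromosome 14, 55587441 to 55591113, - strand) measured 49.1, 42.6 and 46.8 CPM in inhibitor libraries and 82.0, 78.2 and 87.3 CPM in DMSO libraries (-0.84, SE 0.07, adjusted p = 2.68e-05), the largest fall of any member. Neither gene had groups that overlapped. The count of Psme2 is uncertain, since Psme2b on chromosome 11 is 99.4% identical to it over 794 bases and held 76.9% of the counts of both summed. Psme2b fell by 0.91 on the log2 scale. The 2 summed averaged 194 ± 7.79 CPM in inhibitor libraries and 361 ± 22.8 CPM in DMSO libraries (-0.90, SE 0.06, adjusted p = 7.43e-06).

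The other caps rose. Psme3 (chromosome 11, 101316213 to 101323537, + strand), which encodes the nuclear PA28 gamma subunit, measured 183, 183 and 182 CPM in inhibitor libraries and 148, 158 and 148 CPM in DMSO libraries (0.27, SE 0.04, adjusted p = 0.00105). Psme4 (chromosome 11, 30771726 to 30880361, + strand), which encodes PA200, measured 147, 141 and 149 CPM in inhibitor libraries and 118, 117 and 111 CPM in DMSO libraries (0.33, SE 0.05, adjusted p = 0.000445). Psmf1 (chromosome 2, 151715812 to 151744186, - strand) encodes PI31, which inhibits the core in vitro. It measured 51.9, 51.1 and 47.8 CPM in inhibitor libraries and 29.7, 36.6 and 34.7 CPM in DMSO libraries (0.57, SE 0.08, adjusted p = 0.000629). No group overlapped in these 3 genes. Per kilobase of exon, Psme2 over Psme3 was 0.422 ± 0.0297 in inhibitor libraries and 0.914 ± 0.082 in DMSO libraries. Psme1 over Psme3 was 0.480 ± 0.0223 in inhibitor libraries and 0.789 ± 0.049 in DMSO libraries (SD, n = 3 each, both exact permutation p = 0.1, two-sided). These pairs were chosen after a fall and a rise without overlap were seen, so both ratios had to separate the groups. Their p adds no evidence, and Psme2 is taken without Psme2b. By the length of the principal transcript Psme1 and Psme2 lay above Psme3 in DMSO libraries, at 80.3 and 85.8 against 56.8 CPM per kilobase. In inhibitor libraries they lay below it, at 59.0 and 48.0 against 68.5.

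Of 7 assembly chaperones 2 rose, 2 fell and 3 did not pass, with a median log2 fold change of 0.08 (0.19 with library totals). The share called, 57.1%, stood beside 51.5% of all tested genes. Psmg1 and Psmg2 encode a dimer that helps to assemble the alpha ring. Psmg1 fell (-0.40, adjusted p = 0.011), and Psmg2 did not pass (0.08, adjusted p = 0.404). Psmg3 and Psmg4 form another such dimer. Psmg3 (chromosome 5, 139823592 to 139826885, - strand) measured 21.2, 24.5 and 23.9 CPM in inhibitor libraries and 15.03, 14.0 and 15.7 CPM in DMSO libraries (0.64, SE 0.08, adjusted p = 0.000411), without overlap. Psmg4 had -0.19 (adjusted p = 0.23). Psmd5, Psmd9 and Psmd10 (gankyrin) help to build the base. Psmd10 (chromosome X, 140948429 to 140956728, - strand) fell most among the chaperones. It measured 55.8, 49.5 and 53.5 CPM in inhibitor libraries and 74.7, 88.8 and 83.0 CPM in DMSO libraries (-0.64, SE 0.07, adjusted p = 0.000205). Psmd5 averaged 84.5 ± 17.4 CPM in inhibitor libraries and 58.1 ± 11.3 CPM in DMSO libraries (SD, n = 3 each; 0.54, SE 0.17, adjusted p = 0.0263), and this call was lost in DESeq2 (adjusted p = 0.0577) and without inhibitor replicate 2 (0.0794), DMSO replicate 1 (0.0859) or DMSO replicate 2 (0.0831). Psmd9 did not pass (0.27, adjusted p = 0.0567), and it was called higher with library totals (adjusted p = 0.00989), with no filter (0.0451) and without DMSO replicate 2 (0.0295).

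The share of each class in the counts over all members was taken within each library. The beta ring held 16.0% ± 0.35 in inhibitor libraries and 18.6% ± 0.451 in DMSO libraries. The lid held 26.8% ± 0.966 in inhibitor libraries and 24.8% ± 0.177 in DMSO libraries, and the caps with PI31 held 9.51% ± 0.241 in inhibitor libraries and 8.70% ± 0.331 in DMSO libraries. These 3 classes did not overlap between groups (SD, n = 3 each, exact permutation p = 0.1, two-sided, the smallest possible). The shares are built from the same counts as the calls above, so this p adds no evidence to them. The lid includes Psmd11, the largest rise of any member (0.77), while the median log2 fold change of the lid was -0.01. Its share therefore does not describe the lid genes as a set. The share of the caps leaves out Psme2b, which fell (-0.91) and held 76.9% of its counts summed with Psme2. Psme2b had 3576 to 3926 counts in inhibitor libraries and 4576 to 6853 counts in DMSO libraries. With these counts added to the caps, their share would be lower in inhibitor libraries. The direction of that share therefore depends on whether Psme2b is counted. The alpha ring held 15.1% ± 0.11 in inhibitor libraries and 15.01% ± 0.307 in DMSO libraries (p = 0.9 by the same exact test), the base 28.2% ± 0.401 in inhibitor libraries and 28.8% ± 0.527 in DMSO libraries (p = 0.2 by the same exact test), and the chaperones 4.43% ± 0.262 in inhibitor libraries and 4.07% ± 0.224 in DMSO libraries (p = 0.2 by the same exact test). Genes are not independent replicates, and these shares compare libraries.

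**Figure D3:**
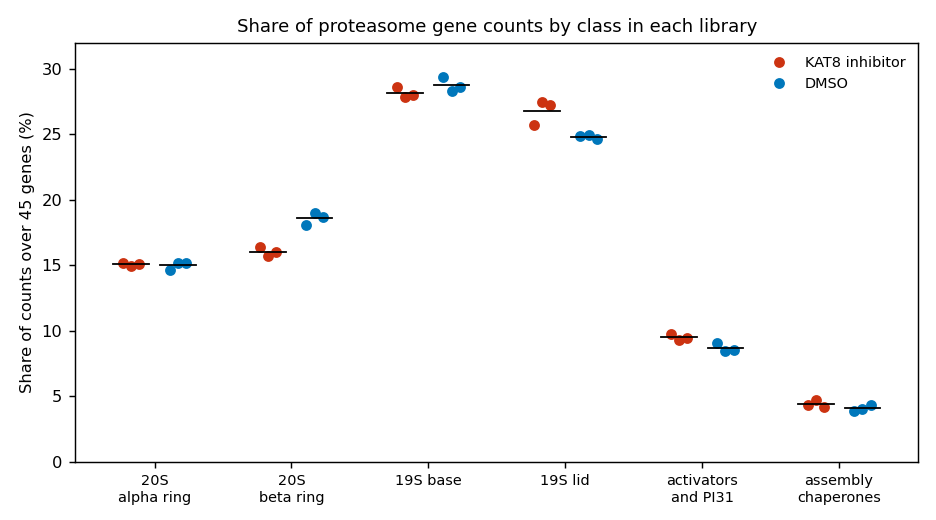
Percent of the counts summed over all 45 proteasome genes that falls in each class, for each library, with a bar at the group mean. The beta-ring points lie lower in inhibitor libraries (mean 16.0% against 18.6% in DMSO libraries), and the alpha-ring means are 15.1% in inhibitor libraries and 15.01% in DMSO libraries.

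Levels per kilobase of exon, which allow genes to be compared, spanned a wide range. Psmd8 (154 ± 14 CPM per kilobase), Psma6 (150.3 ± 7.43) and Psmb6 (121 ± 7.81) were highest in inhibitor libraries, and in DMSO libraries Psmb6 (173 ± 16.2), Psma6 (159 ± 10.5) and Psmd8 (155 ± 9.69) were. The places of Psme2 and Psma5 in this order are uncertain. Their near-copies Psme2b and Gm8394 held 76.9% and 45% of the summed counts. Psme2 and Psme2b summed averaged 361 CPM in DMSO libraries, a value not divided by length. Over the 1764 exon bases of Psme2 it would exceed the level of Psmb6 per kilobase of exon. The highest place in DMSO libraries is therefore uncertain too. Psmd8 and Psma6 did not differ beyond their spread in either group by union exon length. By the length of the principal transcript Psmd8 was higher, at 306 against 178 CPM per kilobase for Psma6 in inhibitor libraries and 309 against 188 in DMSO libraries. Without Psma8, the highest member was 34.3 times the lowest in inhibitor libraries and 46.7 times in DMSO libraries. Psmd9 was the lowest of them, at 4.50 ± 0.0986 CPM per kilobase in inhibitor libraries and 3.72 ± 0.549 in DMSO libraries, and Psmf1, Psmg1, Psmg2 and Psmg3 were also low (SD, n = 3 each). By principal transcript length the lowest was instead Psmg1 in inhibitor libraries (10.2, against 12.5 for Psmd9) and Psmf1 in DMSO libraries (8.84, against 10.4 for Psmd9). As a description over 44 members, the log2 fold change ran with exon length (Spearman's rho 0.49, against 0.02 over all genes) and with GC content (-0.40, against -0.06).

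Among 15 partners and regulators of the proteasome, 6 rose, 4 fell and 5 did not pass, with a median log2 fold change of 0.10. The share called was 66.7%, against 51.5% of all tested genes. Library totals gave 9 higher, with Pomp (adjusted p = 0.0231), Usp14 (0.00508) and Fbxo7 (0.0422) gained, and 2 lower. The 4 lower calls became 2 without inhibitor replicate 2 and 2 without DMSO replicate 3. Nfe2l1, which encodes the transcription factor NRF1, measured 148, 104 and 129.7 CPM in inhibitor libraries and 175, 159 and 246 CPM in DMSO libraries. The DMSO libraries scattered widely, with replicate 3 far above the other two, and no inhibitor library reached the lowest DMSO value (-0.60, SE 0.18, adjusted p = 0.0203). Without inhibitor replicate 2 its call was lost (-0.48, adjusted p = 0.0642), and without DMSO replicate 3 the value was -0.40 (adjusted p = 0.0488). Ddi2, the protease that cuts NRF1 into its active form, measured 100.5, 101 and 100.2 CPM in inhibitor libraries and 75.1, 72.0 and 68.6 CPM in DMSO libraries (0.49, SE 0.05, adjusted p = 6.52e-05). It shares 1749 bases of exon (18.3%) with Rsc1a1 on the same strand, which rose (0.48, adjusted p = 0.000146). Reads of both genes may therefore be mixed. Sem1, a small lid subunit, measured 69.2, 58.3 and 70.6 CPM in inhibitor libraries and 74.2, 77.1 and 86.7 CPM in DMSO libraries (-0.27, SE 0.09, adjusted p = 0.0326), and its call was lost without inhibitor replicate 2 (0.0933), DMSO replicate 2 (0.0506) or DMSO replicate 3 (0.103). Adrm1, a ubiquitin receptor of the base, measured 65.3, 63.0 and 63.5 CPM in inhibitor libraries and 64.7, 73.0 and 73.7 CPM in DMSO libraries. Its groups overlapped (-0.14, SE 0.06, adjusted p = 0.0793), and it was called without DMSO replicate 1 (-0.20). Pomp, which helps to join the beta subunits to the core, measured 94.96, 118 and 119.7 CPM in inhibitor libraries and 99.0, 101 and 91.2 CPM in DMSO libraries, also with overlap (0.19, SE 0.09, adjusted p = 0.106; called without inhibitor replicate 1, at 0.30). The other genes that rose were Ecpas (0.82), Uchl5 (0.58), Zfand5 (0.39), Ube3c (0.27) and Akirin2 (0.25), and the other genes that fell were Nfe2l2 (-0.26) and Ngly1 (-0.22). The call of Akirin2 was lost without inhibitor replicate 1 (adjusted p = 0.0514), 2 (0.0715) or 3 (0.0605) or DMSO replicate 3 (0.0779), and that of Ngly1 without inhibitor replicate 1 (0.0691) or DMSO replicate 3 (0.0604).

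Of 12 tested ubiquitin genes, E1 enzymes and shuttles, 5 rose, 4 fell and 3 did not pass, with a median log2 fold change of 0.06. The share called was 75%, against 51.5% of all tested genes. Library totals gave 7 higher, with Ubqln1 (adjusted p = 0.0266) and Ufd1 (0.0119) gained, and 2 lower. Uba6, an E1 enzyme, was among the 5 (0.14, adjusted p = 0.0391), but its call was lost with no filter (0.0579), in DESeq2 (0.111), after the GC and length correction (0.17) and without any single library other than inhibitor replicate 2 (0.0664 to 0.138). The 5 higher calls became 3 without inhibitor replicate 1 and 3 without inhibitor replicate 3. Ubb, a polyubiquitin gene, rose (0.21, SE 0.06, adjusted p = 0.0202; 0.0621 without inhibitor replicate 1 and 0.0522 without inhibitor replicate 3). Rps27a, which encodes ubiquitin fused to a ribosomal protein, averaged 30.2 ± 1.33 CPM in inhibitor libraries and 43.2 ± 4.26 CPM in DMSO libraries (SD, n = 3 each; -0.52, SE 0.08, adjusted p = 0.000967). Sqstm1, the autophagy receptor p62, averaged 2894 ± 276 CPM in inhibitor libraries and 1711 ± 108 CPM in DMSO libraries (SD, n = 3 each; 0.76, SE 0.08, adjusted p = 0.000101).

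**Figure D4:**
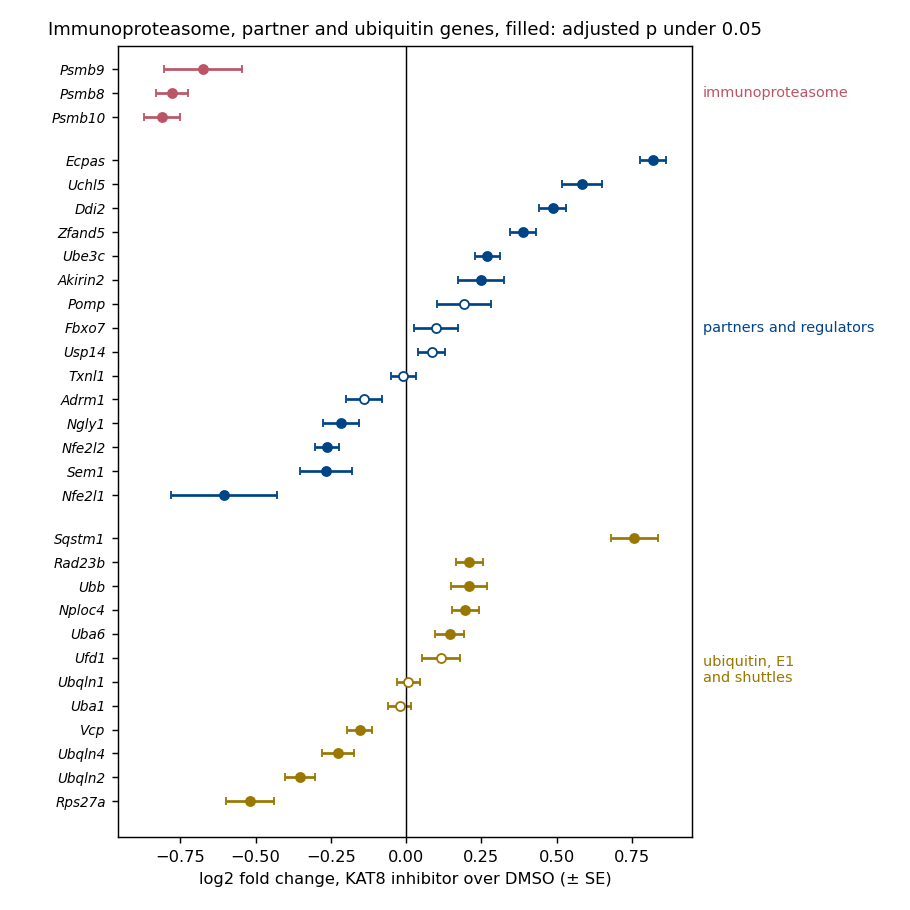
Log2 fold change (inhibitor over DMSO) with its SE for the immunoproteasome subunits, the partners and regulators, and the ubiquitin genes; filled points have an adjusted p under 0.05. All 3 immunoproteasome genes lie at -0.67 or below, and the other 2 lists hold genes on both sides of 0.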

How the data were processed

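RNA-seq counts of mouse bone marrow-derived macrophages were analysed for 6 libraries, 3 per group. The authors deposited raw read counts per Ensembl gene, with no normalization; per the submitters' processing notes, the tools were edgeR, HISAT2 and StringTie 1.3.0, and the build mm10. The sources used here do not give their roles, the annotation, the strand setting or the rule for reads matching several genes. Rows without a gene symbol (478) held 0.143% to 0.199% of counts. Members and gene lists were chosen with earlier results of these data known. Some genes of the ubiquitin list are not reported here.

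Counts were filtered with filterByExpr (minimum count 10), TMM-scaled and tested with edgeR 4.0.16 in R 4.3.3 (glmQLFit, glmQLFTest, Benjamini-Hochberg over all tested genes, called under an adjusted p of 0.05). The procedure was tested on simulated data. Exon lengths and coordinates came from GENCODE M21 (GRCm38), look-alike genes from blastn 2.17.0 (at least 95% identity over 150 bases), and promoters from RefSeq (GRCm38.p6). Values in all libraries were given for the 3 catalytic subunits, the called member with the largest rise and fall of each class (or the smallest p), the caps, PI31, and Nfe2l1, Ddi2, Adrm1, Sem1 and Pomp; Psmd14, Psmd5, Psma7, Psma8, Kat8, the other pathway genes named and all ratios were added after their values were seen. No 2 libraries agreed within sampling noise. Alternatives were other scalings, filters, DESeq2 1.42.0, a stricter threshold, a GC and length correction, a replicate block and leaving out each library; near-copy counts summed and principal transcript lengths were chosen after seeing the data.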

Additional observations from a re-analysis of the deposited data

How the results depend on the processing

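All 25 called members kept their direction under all 16 alternatives, and 19 also kept the call. The 6 others are Psmd1, Psmd5, Psmc2, Psmd4, Psmd13 and Psmg1, the last at the stricter threshold of 0.01 only. The stricter threshold used the same fit, so no direction could change there. Summing near-copy counts changed the counts of Psma5, Psmb3, Psmd11, Psmd2 and Psme2 only, so it could barely move other members. Between members and settings, 645 values kept direction and call, 24 lost the call, 13 gained it and 21, all of members that did not pass, changed sign. Scaling to library totals gave 11 members higher and 14 lower; the medians became 0.022 over all members, -0.146 for the beta ring, -0.081 for the base, 0.098 for the lid, 0.381 for the caps and PI31 and 0.187 for the chaperones, by construction of the scaling, which moved the median of all genes by 0.109. Under it Psma3 (0.039), Psma6 (0.031), Psmb7 (0.071), Psmc1 (0.104), Psmc6 (0.014), Psmd2 (0.095), Psmd7 (0.1) and Psmd8 (0.097) changed sign. Psmc1 also did so with no filter (0.003), after the GC and length correction (0) and with the replicate block added to it (0.001). Leaving out single libraries moved the members' median between -0.129 (without DMSO replicate 1) and -0.051 (without DMSO replicate 2), and gave sign changes for Psma5 (-0.022 to 0.047), Psmc1 (-0.041 to 0.039), Psmd2 (-0.039 to 0.012), Psmd7 (-0.037 to 0.027) and Psmd8 (-0.069 to 0.062), and among the pathway genes Txnl1 (-0.034 to 0.012) and Ubqln1 (-0.006 to 0.019); the cause was not tested. Under library totals Txnl1 (0.099) and Uba1 (0.087) changed sign, as did Ubqln1 (-0.009) after the GC and length correction with or without the block. With single libraries left out, the members called ranged from 7 to 9 higher and from 15 to 19 lower. Replicate numbers did not pair the libraries: deviations of same-numbered libraries correlated at -0.0337, -0.003 and 0.0243. With the replicate block, 10 members were higher and 16 lower: Psmd9 gained its call (0.282, adjusted p = 0.044), and Uba6 lost its call (0.0681). With the block and the GC and length correction together, Psma2 (0.0328), Psma4 (-0.143, adjusted p = 0.0337) and Psmc6 (0.0291) were called lower, and Psmd1 (0.0735), Psmd5 (0.0504) and Uba6 (0.243) lost their calls. DESeq2 gave 8 higher and 16 lower. With principal transcript lengths the ratio of highest to lowest level was 29.9 in inhibitor libraries and 46.0 in DMSO libraries, with another lowest member in each group than by union exon length.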
